A study of Mus musculus with 7 samples.

Results

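MHC class II presentation in the mouse adrenal gland was followed through 7 genes: H2-Aa, H2-Ab1 and H2-Eb1, which encode chains of the class II molecules, Cd74, H2-DMa and H2-DMb1, which handle those molecules inside the cell, and Ciita, which drives their transcription. The genes were taken by symbol from a deposited table of normalized read counts for 35976 genes, and all 7 were found there. Genes whose level averaged 10 normalized counts or more across the 7 libraries were tested, 16720 in all, and all 7 were among them. The summed level of the 7 was 319.3 normalized counts before birth, 742.2 and 506.6 in male and female glands just after it, 1190 and 1379 at 2 weeks, and 14090 and 9749 at 12 weeks.

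Total RNA was sequenced from adrenal glands of the inbred mouse strain C57BL/6J, and the labels name no treatment or engineered allele in any group. Each library was made from 1 pool: 40 glands at E18.5, shortly before birth and with the sex not determined, 16 male and 22 female glands at P1 (postnatal day 1), 6 male and 6 female glands at 2 weeks, and 4 male and 4 female glands at 12 weeks. The labels describe no separation of cortex, medulla or surrounding tissue. With 1 library per group there was no replicate, so p-values come only from a fit over the 6 postnatal libraries that takes its spread from how the male and female libraries differ across ages.

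Libraries held 15184210 to 23551289 reads in genes. The labelled tissue was checked on its markers: Cyp11a1, the first enzyme of steroid synthesis, had 21943 to 74293 normalized counts, and Th, an enzyme of catecholamine synthesis, had 4970 to 7507. In the library labelled P1 female, 4 Y-linked genes reached 15.6 to 28.1% of the P1 male level, against a median of 0.0609% at 2 weeks and 0.0132% at 12 weeks, so the age differences, the list counts from P1 and the ratios to other lists are given below with and without it. Markers of other tissues varied between libraries: the summed level of 6 skeletal muscle genes was 16426 normalized counts at E18.5, 36792 and 66361 in the P1 male and female libraries, 247.3 and 8644 at 2 weeks, and 47.5 and 39.6 at 12 weeks. The 5 liver genes summed to 229995 normalized counts at E18.5, and to 302101 and 214305 in the P1 male and female libraries. At 2 weeks their sum was 12588 and 32802, and at 12 weeks 409.7 and 376.7. Adipocyte genes were higher from 2 weeks on, with values given below.

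Class II molecules display peptides from engulfed material to CD4+ T cells, and dendritic cells, macrophages and B cells are their main carriers. An alpha and a beta chain pair in the endoplasmic reticulum with the invariant chain, the product of Cd74, which blocks the groove and leads the complex to endosomes. There cathepsin S trims the invariant chain, and H2-DM, a dimer of the H2-DMa and H2-DMb1 products, exchanges the remaining fragment for a peptide. Ciita is a co-activator that does not bind DNA itself: it is recruited by factors bound to the X and Y boxes, short elements in the promoters of class II genes.

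In the mm10 genome (GRCm38), 5 of the 7 genes lie together in the MHC on chromosome 17. In the RefSeq annotation of GRCm38.p6 these are H2-DMa (chr17:34119693-34139101), H2-DMb1 (chr17:34153191-34160229), H2-Ab1 (chr17:34263227-34269418), H2-Aa (chr17:34282744-34287823) and H2-Eb1 (chr17:34305867-34316674). Ciita lies on another chromosome (chr16:10480014-10531064), as does Cd74. All 7 are annotated as protein-coding.

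Promoter windows of RefSeq (GRCm38.p6), which span the start site of a gene, were found for 4 of the 7 genes: H2-Aa, H2-Eb1, H2-DMb1 and H2-DMa. They are shown because the class II genes moved together in these data and share promoter elements by textbook knowledge. The stretches below run 5′ to 3′ on the gene's strand over 80 bases, from chr17:34287852-34287931 (minus strand) for H2-Aa, chr17:34305748-34305827 (plus) for H2-Eb1, chr17:34153070-34153149 (plus) for H2-DMb1 and chr17:34325515-34325594 (plus) for H2-Eb2, a second beta chain gene beside H2-Eb1. Capitals mark the Y box, read as ATTGG on this strand (CCAAT on the other), and, where it occurs, a core of the X box (G, any base, AAC, then TGATG).
H2-Aa: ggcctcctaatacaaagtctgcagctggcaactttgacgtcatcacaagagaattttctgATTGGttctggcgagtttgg
H2-Eb1: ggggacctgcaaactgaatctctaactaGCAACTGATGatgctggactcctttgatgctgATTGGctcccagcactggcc
H2-DMb1: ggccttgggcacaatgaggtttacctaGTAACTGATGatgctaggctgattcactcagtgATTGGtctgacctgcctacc
H2-Eb2: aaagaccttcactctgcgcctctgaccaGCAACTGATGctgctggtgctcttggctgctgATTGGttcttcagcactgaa

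The Y box began 48 bases before the annotated start site in H2-Aa, 59 in H2-Eb1, 61 in H2-DMb1 and 100 in H2-Eb2, and H2-Eb1 also held CCAAT on its own strand 35 bases before the start. The X box core preceded it by 22 bases in H2-Eb1 and H2-Eb2 and by 23 in H2-DMb1, and its letters do not occur in the H2-Aa window. Of 32851 promoter windows, 37.4% held CCAAT on either strand, 0.335% held the X box core on either strand and 0.137% held both. The core was chosen after the sequences were seen. An X1 box pattern (CC, any base, AG, any pair of bases, AC, any pair of bases, ATG) was in 0.195% of windows and matched H2-DMb1 alone among the 4 genes. Windows of the class II genes H2-Oa, H2-Ob and H2-DMb2 were scanned as well. Each held a Y box and none held the X box core, and H2-Ob matched the X1 box pattern. H2-DMa had a pair of windows, with a Y box in 1 of them, 198 bases before the start. These matches describe letters only, and binding was not measured.

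The 3 genes for the chains of the class II molecules were low at E18.5 and rose to more than 1286 normalized counts by 12 weeks. H2-Aa, the alpha chain of the I-A molecule, had 47.9 normalized counts at E18.5, 163.7 and 59.6 in the P1 male and female libraries, 265.1 and 335.2 at 2 weeks, and 4132 and 2666 at 12 weeks. H2-Ab1, its beta chain partner, had 43.7 at E18.5, 117.8 and 92.7 at P1, 236.6 and 310.5 at 2 weeks, and 3487 and 1612 at 12 weeks, again male first. For both genes E18.5 was the lowest library, and the 12-week libraries lay far above all others. H2-Eb1, the beta chain of the I-E molecule, had 18.48 normalized counts at E18.5, 96.6 and 32.0 at P1, 138.8 and 203.8 at 2 weeks, and 2203 and 1286 at 12 weeks. The partner of H2-Eb1 was listed only as the pseudogene H2-Ea-ps, which had no read in any library (an upper limit of 2.45 to 4.19 normalized counts at 3 reads). C57BL/6 mice are known to lack a functional I-E alpha gene and so carry no I-E on their cells.

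Cd74 (chr18:60803849-60812652), the invariant chain, followed the chains of the class II molecules with less spread between male and female libraries. It had 67.2 normalized counts at E18.5, 180.0 and 168.9 in the P1 male and female libraries, 403.0 and 367.0 at 2 weeks, and 3384 and 3657 at 12 weeks. Its 12-week libraries overlapped no other age, and it was the only one of the 7 genes whose 12-week female library was above the male one. Ciita, the co-activator, had 11.8 normalized counts at E18.5, 27.8 and 18.8 at P1, 26.7 and 28.2 at 2 weeks, and 303.4 and 142.6 at 12 weeks. Its P1 and 2-week libraries lay between 18.8 and 28.2, and its 12-week libraries were clear of them.

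The H2-DM genes differed from each other at the early ages. H2-DMa had 120.1 normalized counts at E18.5, 121.9 and 106.0 in the P1 male and female libraries, 98.7 and 100.6 at 2 weeks, and 360.7 and 210.4 at 12 weeks. It was the only one of the 7 genes for which E18.5 was not the lowest library. H2-DMb1 had 10.1 normalized counts at E18.5, 34.4 and 28.7 at P1, 21.3 and 33.5 at 2 weeks, and 220.9 and 175.4 at 12 weeks. The ratio of H2-DMb1 to H2-DMa counts was 0.0839 at E18.5, 0.216 to 0.333 at P1 and 2 weeks, and 0.612 and 0.833 in the 12-week male and female libraries. The longest open reading frames of H2-DMb1 and its neighbour H2-DMb2 are 95.9% identical, so reads of these 2 genes can be split between them and their values are uncertain. H2-DMb2 itself had 4.41 to 22.9 normalized counts, highest in the P1 male library.

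**Figure D1:**
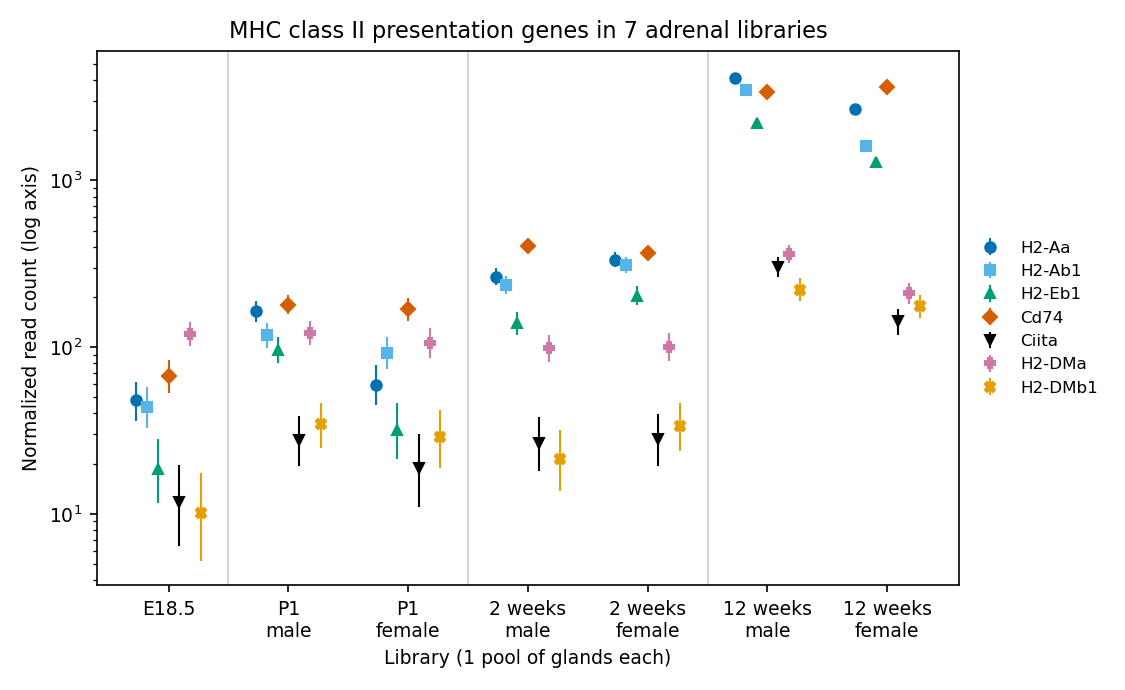
Normalized read count (log axis) of the 7 class II genes in each of the 7 libraries, 1 pool of glands each, with bars for the exact 95% counting interval. All 7 genes are highest in the 12-week libraries, and H2-DMa differs from the others in starting at 120.1 at E18.5.

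Both 12-week libraries were above all 5 others in 7 of 7 genes, an order held by 20.2% of all genes tested. E18.5 was below all 6 postnatal libraries in 6 of 7, against 15.4% of genes. In bulk gland RNA, fewer cells of a type and less RNA per cell cannot be told apart.

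Compared per kilobase of exon (GENCODE M21 basic transcripts), H2-Aa, H2-Ab1 and Cd74 were the most abundant of the 7 genes at 12 weeks. In the male and female libraries, H2-Aa had a level of 3663 and 2363 normalized counts per kilobase, H2-Ab1 2877 and 1330, and Cd74 2389 and 2582. The level of H2-Eb1 was 1320 and 771 per kilobase. H2-DMb1 (157 and 125), H2-DMa (135 and 78.9) and Ciita (36.9 and 17.3) were an order of magnitude or more below H2-Aa. H2-K1, a class I heavy chain made by most cells, had 4463 and 4317 per kilobase in the same libraries. At E18.5 the order was different: H2-DMa, at 45.0 per kilobase, stood beside Cd74 (47.5), H2-Aa (42.5) and H2-Ab1 (36.0).

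Between E18.5 and P1, class II genes were higher after birth in most comparisons, with 1 library per group and no test. The P1 male library was at least 2-fold above E18.5 for 6 of 7 genes, against 4.90% of all genes tested. Its ratio to E18.5 ran from 2.37 for Ciita to 5.22 for H2-Eb1 in those 6, and was 1.01 for H2-DMa. The library labelled P1 female was at least 2-fold above E18.5 for 3 of 7 genes, against 7.04% of all genes: H2-Ab1 (ratio 2.12), Cd74 (2.51) and H2-DMb1 (2.85). For H2-Aa that ratio was 1.25 with a 95% counting interval of 0.842 to 1.84, and for H2-Eb1 it was 1.73 (0.961 to 3.16), so neither was distinguishable from E18.5 at this depth. The ratios share the E18.5 library.

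From P1 to 2 weeks Cd74, H2-Aa and H2-Ab1 rose, while H2-Eb1, Ciita and the H2-DM genes did not pass the test. Differences are given on the log2(normalized count + 1) scale with standard errors from limma over the 6 postnatal libraries, sex as a block, and Benjamini-Hochberg adjustment over all genes tested. Cd74 rose by 1.14 ± 0.16 (adjusted p = 0.00758), H2-Aa by 1.58 ± 0.38 (adjusted p = 0.0376) and H2-Ab1 by 1.37 ± 0.34 (adjusted p = 0.0395). H2-Eb1 had a difference of 1.58 ± 0.46 that did not pass (limma adjusted p = 0.0633). So 3 of 7 genes passed as higher and none as lower, against 5.89% and 10.5% of all genes, and the median difference of the 7 was 1.14, against 0.00 for all genes. Ciita had 0.25 ± 0.38, H2-DMa -0.19 ± 0.27 and H2-DMb1 -0.22 ± 0.36 on the same scale, with limma adjusted p from 0.676 to 0.712.

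For the chains this early difference was larger between the female pools than between the male pools, which was not tested. The female ratios all rest on the library labelled P1 female, which held Y-linked reads. The 2-week to P1 ratio of H2-Aa was 5.62 in females (95% counting interval 4.22 to 7.63) and 1.62 in males (1.35 to 1.95). For H2-Ab1 it was 3.35 in females and 2.01 in males, and for H2-Eb1 6.37 (4.32 to 9.72) and 1.44 (1.12 to 1.84). Cd74 had a ratio of 2.17 in females and 2.24 in males. No gene of the 7 passed when any 1 of the P1 or 2-week libraries was left out, the one labelled P1 female included, where the difference of H2-Aa was 0.93 and that of Cd74 1.10 (limma adjusted p = 0.236 and 0.0829). Over the same interval 5 of 6 adipocyte genes rose, against 5.89% of all genes (2 without P1 female, 1 without P1 male), and their summed level was 2889 and 3031 normalized counts in the P1 male and female libraries and 23027 and 25297 at 2 weeks. The part of fat tissue in the class II levels was not tested.

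From 2 weeks to 12 weeks all 7 genes rose. The largest differences were in H2-Aa, at 3.47 ± 0.38 on the log2 scale (limma adjusted p = 0.00332), H2-Eb1 at 3.32 ± 0.46 (0.00675), Cd74 at 3.19 ± 0.16 (0.00058) and H2-Ab1 at 3.12 ± 0.34 (0.00301). Ciita rose by 2.88 ± 0.38 and H2-DMb1 by 2.83 ± 0.36 (limma adjusted p = 0.00575 and 0.00517), so the co-activator and the chains were higher together at 12 weeks. H2-DMa rose least, by 1.46 ± 0.27 (limma adjusted p = 0.0177). The count of 7 of 7 higher, with none lower, stands against 5.40% and 9.89% of all genes, and the median of 3.12 against -0.03 for all genes. Without the 2-week male library 4 of 7 passed, and the adjusted p from limma was 0.0683 for Ciita, 0.0581 for H2-DMb1 and 0.201 for H2-DMa. H2-DMa also missed the threshold without either P1 library or the 2-week female library.

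The increase was seen in both sexes. The ratio of 12 weeks to 2 weeks in males was 15.6 for H2-Aa, 14.7 for H2-Ab1, 15.9 for H2-Eb1, 8.40 for Cd74, 11.4 for Ciita, 10.3 for H2-DMb1 and 3.65 for H2-DMa. In females the ratio was 7.95 for H2-Aa, 5.19 for H2-Ab1, 6.31 for H2-Eb1, 9.96 for Cd74, 5.05 for Ciita, 5.23 for H2-DMb1 and 2.09 for H2-DMa. The male ratio was the higher of the pair for 6 genes and the female ratio for Cd74, a difference that was not tested.

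**Figure D2:**
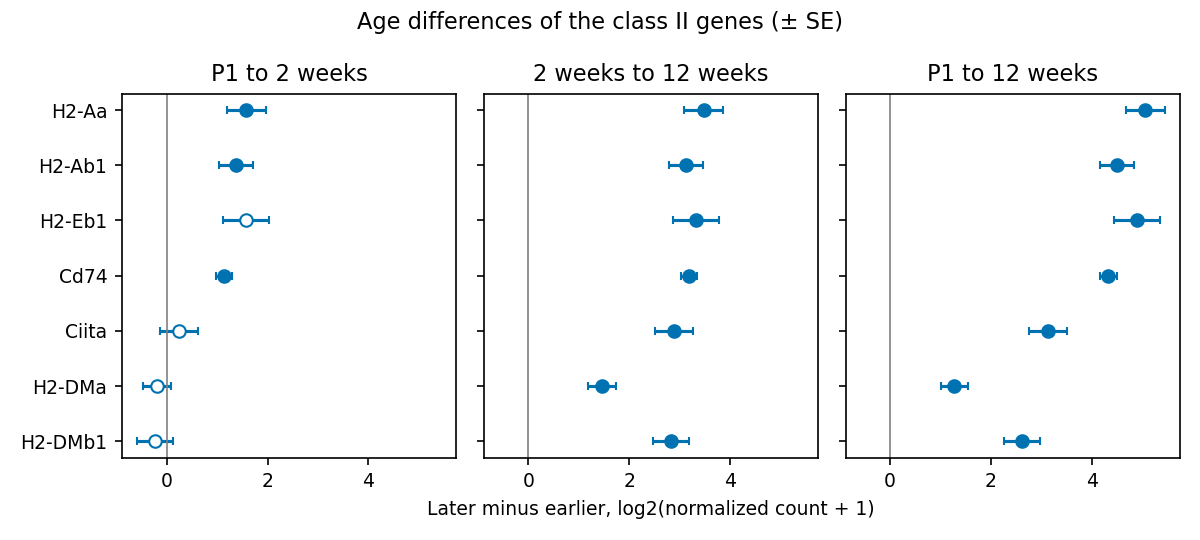
Difference between ages on the log2(normalized count + 1) scale, later minus earlier, for each of the 7 class II genes, as the limma estimate with its standard error over the 6 postnatal libraries, filled points passing an adjusted p of 0.05. From P1 to 2 weeks 3 genes pass, while all 7 pass in both comparisons that end at 12 weeks, with H2-DMa the smallest.

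Over the whole interval from P1 to 12 weeks, all 7 genes rose, against 17.6% of all genes tested that rose and 23.5% that fell, with a median difference of 4.33 on the log2 scale against -0.03 for all genes. H2-Aa rose by 5.05 ± 0.38 (limma adjusted p = 0.000285), H2-Eb1 by 4.89 ± 0.46 (0.000558), H2-Ab1 by 4.49 ± 0.34 (0.000276) and Cd74 by 4.33 ± 0.16 (7.72e-05). Ciita rose by 3.13 ± 0.38 (limma adjusted p = 0.00138), H2-DMb1 by 2.61 ± 0.36 (0.00225) and H2-DMa by 1.27 ± 0.27 (0.0113). Without the library labelled P1 female the other 6 still passed and H2-DMa did not (limma adjusted p = 0.0877). H2-DMa also missed the threshold without P1 male or 12-week male. Over this interval 6 of 6 adipocyte genes rose as well (5 without P1 female, 4 without P1 male), with a median difference of 6.24, and their sum was 31837 and 24899 normalized counts in the 12-week male and female libraries. The part of fat in this difference was not tested. Set against E18.5, with no test, the 12-week male library was 119 times as high for H2-Eb1 and 86.3 times for H2-Aa, and the female library 69.6 and 55.7 times.

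Over the 3 postnatal ages the sex difference passed for none of the 7 genes (limma, age as a block; adjusted p = 0.999 for each and smallest unadjusted p = 0.11). Of all genes 0.00598% passed, which is 1 gene, lower in males, and 521 had an unadjusted p under 0.05. None of the 4 Y-linked genes passed, with female levels at a median of 0.0609% of male at 2 weeks and 0.0132% at 12 weeks. This fit, which includes the library labelled P1 female, could thus miss large sex differences. A gene that did not pass was not shown to be alike in both sexes. The difference of male minus female on the log2 scale was 0.60 ± 0.37 for H2-Eb1, 0.58 ± 0.31 for H2-Aa, 0.52 ± 0.31 for Ciita, 0.35 ± 0.28 for H2-Ab1 and 0.32 ± 0.22 for H2-DMa. Cd74 had 0.04 ± 0.13 and H2-DMb1 -0.01 ± 0.29, and the sign of this last value turned under other scalings.

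Male and female libraries did differ at single ages, by more than counting error, though with 1 pool each this compares the pools. At 12 weeks the male level was the higher for H2-Ab1 (ratio 2.16, 95% counting interval 2.03 to 2.31), Ciita (2.13, 1.70 to 2.67), H2-Eb1 (1.71, 1.59 to 1.85), H2-DMa (1.71, 1.41 to 2.08) and H2-Aa (1.55, 1.47 to 1.64). H2-DMb1 was at 1.26 (1.003 to 1.58), at the edge of counting error, and Cd74 at 0.925 (0.877 to 0.976). The 2 genes at least 2-fold higher in the 12-week male, H2-Ab1 and Ciita, stand against 4.84% of all genes, and none of the 7 was 2-fold lower (3.98% of genes). In the same pair of libraries the ratio was 1.03 for the class I gene H2-K1, 1.001 for Ctss (cathepsin S), 1.04 for Itgax (CD11c, a marker of dendritic cells and some macrophages), 1.31 for Csf1r, the receptor that macrophages need to survive, and 1.37 for Ptprc (CD45, on all leukocytes). It was 1.45 for Adgre1 (F4/80), another macrophage gene. Fat genes also differed between these pools: the ratio was 2.17 for Cidec, 1.73 for Adipoq, 1.37 for Plin1 and 0.871 for Cfd, and the part of fat or macrophages in the class II ratios was not tested.

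At 2 weeks the order of the sexes was the other way for the chains. The ratio of the male to the female library was 0.791 for H2-Aa (0.677 to 0.923), 0.762 for H2-Ab1 (0.647 to 0.896) and 0.681 for H2-Eb1 (0.552 to 0.838), while for Cd74 it was 1.10 (0.959 to 1.26). None of the 7 genes was 2-fold apart, against 0.568% of genes higher and 3.67% lower in the male. The summed level of 8 neutrophil genes was 32.0 normalized counts in the 2-week male and 2078 in the 2-week female library, that of 8 leukocyte genes 1108 and 1578, and that of the skeletal muscle genes is given above. Their part in the difference was not tested.

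At P1 the male library was higher for H2-Eb1 (ratio 3.02, 1.995 to 4.70) and H2-Aa (2.75, 2.02 to 3.78), the 2 genes of 7 that were at least 2-fold higher, against 3.75% of all genes, and none was 2-fold lower (3.03% of genes). Their partners H2-Ab1 (1.27, 0.964 to 1.68) and Cd74 (1.07, 0.863 to 1.32) were within counting error. The ratio of H2-Aa to Cd74 counts was 0.909 in the P1 male and 0.353 in the library labelled P1 female, the lowest of all libraries. These P1 values rest on the library with Y-linked reads and cannot be had without it.

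**Figure D3:**
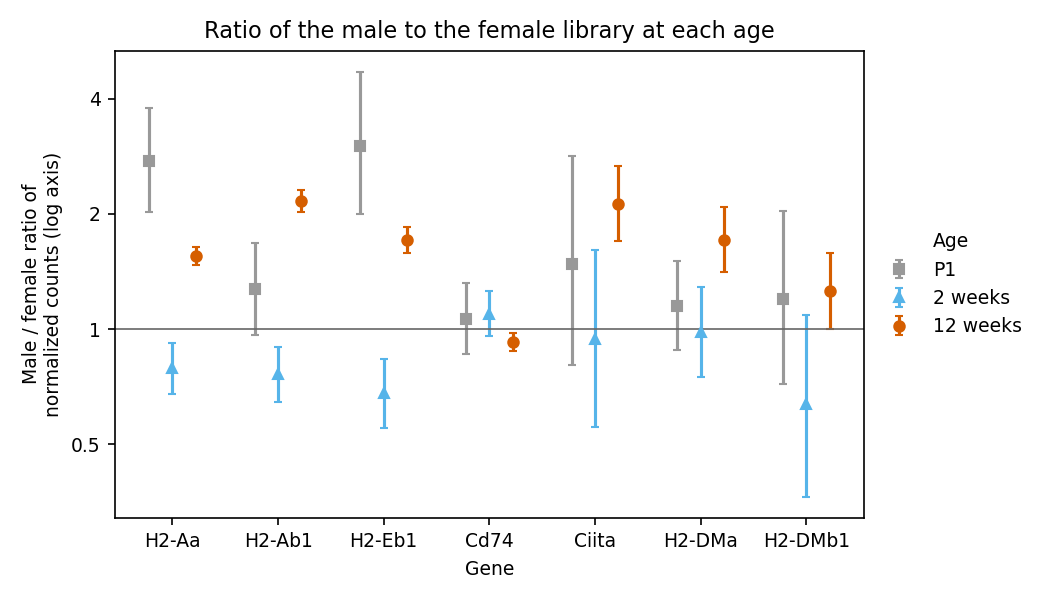
Ratio of normalized counts in the male to the female library (log axis) at P1, 2 weeks and 12 weeks for each of the 7 class II genes, with 95% counting intervals and 1 library per sex and age. H2-Aa and H2-Eb1 are above 1 at P1 and 12 weeks and below 1 at 2 weeks, while Cd74 stays between 0.925 and 1.10.

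The remaining class II chains stayed low. H2-Eb2 had 0.84 to 3.27 normalized counts. Its promoter stretch holds the letters of the X box core and Y box, as that of H2-Eb1 does. The Y box lies 100 bases before the start site in H2-Eb2 and 59 in H2-Eb1, and the part of these letters in the levels was not tested. H2-Oa, the alpha chain of H2-DO, a modulator of H2-DM found mostly in B cells, had 0.84 to 13.6. It was highest in the 12-week male and female libraries, at 8.39 and 13.6, on only 6 and 12 reads. H2-Ob, the partner of H2-Oa, had 8.18 to 22.4, with 22.4 and 11.3 in the 12-week male and female libraries. Of H2-DMb2 and H2-Ob, the 2 that reached the mean of 10, neither passed in any of the 4 fits.

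Of 10 genes for transcription factors listed for class II promoters, whose binding was not measured, none passed between 2 and 12 weeks. Between P1 and 2 weeks 1 fell, against 10.5% of all genes: Spi1, the myeloid factor PU.1, named after its value was seen. Between P1 and 12 weeks 1 of the 10 rose, against 17.6% of all genes: Irf4, a factor of B cells and dendritic cells, by 1.37 ± 0.33 (limma adjusted p = 0.0175). Both counts were 0 without either P1 library, and the first also without either 2-week library and the second without 12-week female. Rfx5, a subunit of the complex on the X box, had 431.0 normalized counts at E18.5 and 470.5 to 687.3 in the postnatal libraries, with a 2-week to 12-week difference of -0.09 ± 0.17 on the log2 scale. Rfxap, another subunit, had 130.0 to 236.2 normalized counts over the 7 libraries. In the interferon gamma pathway, which induces Ciita in many cells, 3 of the 10 genes tested rose from P1 to 12 weeks and none fell, against 17.6% and 23.5% of all genes, and 2 rose without P1 female. Cxcl9, a chemokine induced by interferon gamma, had 0.84 normalized counts at E18.5, 13.1 and 12.1 at P1, 32.0 and 31.8 at 2 weeks, and 96.5 and 99.6 at 12 weeks, a difference of 2.86 ± 0.34 between P1 and 12 weeks (limma adjusted p = 0.00132). Gbp2, a guanylate-binding protein, rose by 1.31 ± 0.19 (limma adjusted p = 0.00255). Ifng itself had 0 to 2.80 normalized counts, at or under the level of 3 reads in every library, and its receptor chain Ifngr1 had 693.2 to 938.2.

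Among 9 genes of endosomal processing 5 rose and none fell from 2 weeks to 12 weeks: Ctss, Ctsb and Ctsd, which are cathepsins, and Sppl2a and March1, both named after their values were seen. The shares of all genes were 5.40% higher and 9.89% lower, and with 1 library left out the count ran from 1 (without any P1 or 2-week library) to 5. Sppl2a cleaves the last membrane stub of the invariant chain, and March1 tags class II molecules for turnover. Ctss, the protease that trims the invariant chain, had 525.1 normalized counts at E18.5, 912.4 and 981.3 at P1, 600.5 and 746.4 at 2 weeks, and 3228 and 3227 at 12 weeks. It rose by 2.27 ± 0.15 from 2 weeks to 12 weeks (limma adjusted p = 0.000888), with the 12-week libraries almost equal. Ctsl, another cathepsin, fell by 0.91 ± 0.14 from P1 to 12 weeks (limma adjusted p = 0.0036). Of 13 class I presentation genes 10 rose and none fell from P1 to 12 weeks, against 17.6% and 23.5% of all genes, and 7 rose without P1 female. They had a median of 1.11 on the log2 scale, against 4.33 for the class II genes. H2-K1 rose by 2.21 ± 0.14 and Nlrc5, the class I counterpart of Ciita, by 2.19 ± 0.30 (limma adjusted p = 0.000195 and 0.00225). Nlrc5 had 46.3 and 56.5 normalized counts at 2 weeks and 373.3 and 348.5 at 12 weeks. Of the 5 co-stimulation genes tested 2 rose from P1 to 12 weeks, and 1 without P1 female, against 17.6% of all genes. These were Cd274 (PD-L1, an inhibitory ligand), at 1.74 ± 0.22, and Icosl, at 1.35 ± 0.22 (limma adjusted p = 0.00175 and 0.00391), while Cd80 and Cd86, the ligands of CD28, had differences of -0.19 ± 0.45 and 0.17 ± 0.33.

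Summed markers of leukocytes and of macrophages moved differently from the 7 genes between P1 and 2 weeks, and in the same direction between 2 and 12 weeks. The 8 common leukocyte genes summed to 1729 normalized counts at E18.5, 2777 and 2680 at P1, 1108 and 1578 at 2 weeks, and 3597 and 3341 at 12 weeks. The 15 macrophage genes summed to 9355, then 12656 and 13884, 4726 and 5002, and 10283 and 8080 in the same order. So both sums were lower in the 2-week libraries than in the P1 libraries, while the class II sum was higher there, and both were higher again at 12 weeks. Of the 8 leukocyte genes 7 rose from 2 weeks to 12 weeks and 0 fell, against 5.40% and 9.89% of all genes. Their median difference was 1.41 on the log2 scale. Fewer of them passed when a P1 or 2-week library was left out. From P1 to 2 weeks 9 of 15 macrophage genes fell, against 10.5% of all genes, and none rose. That count was 0 without P1 female and ran from 0 (also without P1 male) to 14 (without either 12-week library) over the 6 libraries left out in turn. From 2 weeks to 12 weeks 8 rose and 3 fell, against 5.40% and 9.89% of all genes, and 2 to 9 rose and 0 to 4 fell with 1 library left out, the low counts without a P1 or 2-week library. Csf1r fell by 1.57 ± 0.17 and then rose by 1.03 ± 0.17 (limma adjusted p = 0.00377 and 0.0122), with adjusted p of up to 0.0830 and 0.160 when 1 library was left out. The 3 macrophage genes that fell between 2 and 12 weeks were Lyve1, a hyaluronan receptor, Cd163, a haemoglobin scavenger receptor, and Timd4, a receptor for dying cells. Lyve1 had 1344 normalized counts at E18.5, 2216 and 1867 at P1, 217.9 and 282.3 at 2 weeks, and 107.7 and 69.01 at 12 weeks. From P1 on it was thus lower at each later age, unlike the 8 macrophage genes that rose between 2 and 12 weeks.

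Relative to the macrophage list, the summed class II level was 0.0341 at E18.5, 0.0586 and 0.0365 at P1, 0.252 and 0.276 at 2 weeks, and 1.37 and 1.21 at 12 weeks. Relative to the common leukocyte list it was 0.185 at E18.5, 0.267 and 0.189 at P1, and 3.92 and 2.92 at 12 weeks. From the mean of the P1 libraries to that of the 12-week libraries the log2 ratio was higher by 4.80 against macrophages, by 3.91 against leukocytes and by 3.48 against the class I list. Without P1 female these differences were 4.45, 3.66 and 3.06. The levels of the class II genes thus differed between P1 and 12 weeks by more than these 3 sums did.

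Among 7 dendritic cell genes tested 3 rose and none fell from P1 to 12 weeks, against 17.6% and 23.5% of all genes, and without P1 female 1 rose, and 2 without P1 male or 12-week male. Itgax had 6.72 normalized counts at E18.5, 25.4 and 40.8 at P1, 39.1 and 62.6 at 2 weeks, and 330.0 and 316.8 at 12 weeks, a difference of 3.29 ± 0.31 between P1 and 12 weeks (limma adjusted p = 0.000558). Xcr1 and Clec9a, which mark cross-presenting dendritic cells, rose by 2.74 ± 0.56 and 2.05 ± 0.53 (limma adjusted p = 0.00969 and 0.0231), but stayed at 28.3 to 51.7 normalized counts at 12 weeks. Flt3 and Zbtb46, 2 defining genes of the lineage, had differences of 0.50 ± 0.64 and -0.17 ± 0.16. Of the 5 B cell genes tested 3 fell and none rose from P1 to 12 weeks, against 23.5% and 17.6% of all genes, with 1 to 2 falling when any of the 6 libraries was left out (1 without P1 female). Cd79b fell by 2.76 ± 0.35 (limma adjusted p = 0.00171), and the list of 9 summed to 79.7 and 87.1 normalized counts at 12 weeks against 314.2 and 239.5 at P1. The 10 T cell genes summed to 128.6 to 230.8 over the libraries, with Cd3e at 0 to 11.2 and Cd3d at 0 to 3.39. The 8 neutrophil genes summed to 3750 normalized counts at E18.5, 4598 and 2760 at P1, and 57.3 and 53.2 at 12 weeks. The part of each cell type in the class II levels was not tested.

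**Figure D4:**
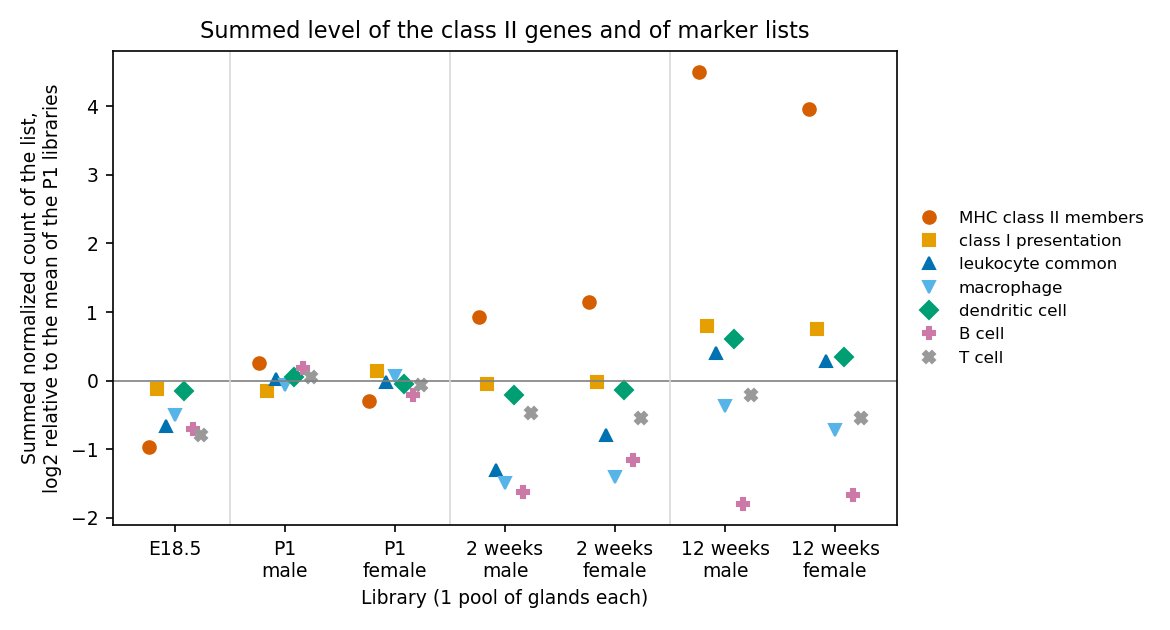
Summed normalized count of the 7 class II genes and of 6 other gene lists in each library, as log2 relative to the mean of the P1 libraries. The class II sum is above the marker lists at 2 weeks and 12 weeks, where the macrophage sum is below its P1 level. That holds for the sum only: the median difference of the 15 macrophage genes from P1 to 12 weeks was 0.07 on the log2 scale.

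The 7 genes resembled each other across libraries. Pearson's r of their log2 levels ranged from 0.804 to 0.997 over the 21 pairs, with a median of 0.959 over the 7 libraries, which share age as the main source of variation. The pairs with H2-DMa gave the low values, 0.804 with Cd74 and 0.925 with Ciita as the ends of its range. Among the 13663 other genes that averaged 50 normalized counts or more, the gene nearest to the median pattern of the 7 was Slamf9, at a root mean square difference of 0.366 on the log2 scale (r = 0.993 over 7 libraries). It was followed by Itgax (0.443), Car5b (0.506), Gm4759 (0.523), Bhlhe41 (0.561) and Inmt (0.572). Among the 7 genes themselves this difference ran from 0.290 for Cd74 to 0.593 for H2-DMb1 and was 1.39 for H2-DMa. Slamf9, a receptor of the SLAM family, had 7.56 normalized counts at E18.5, 24.9 and 37.1 at 2 weeks, and 197.1 and 160.7 at 12 weeks, the same order of these ages as in H2-Aa.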

How the data were processed

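RNA sequencing of pooled C57BL/6J adrenal glands gave 7 libraries, each the only one of its group. Per the submitters' processing notes, the tools named are CASAVA 1.8.2, HISAT2 2.1.0, HTSeq 0.9.1 and DESeq2 2.11.40.6 with the build mm10. The annotation and the use of strand are not given in the sources used here. The authors deposited 1 table of normalized counts (a signal scaled per library). Every value was a whole number of reads divided by 1 size factor per library: 100% of values came out whole within 0.01 reads. Reads in genes ranged from 15184210 to 23551289 per library, which sets the counting error. Counting intervals (exact, 95%) and the level of 3 reads cover counting error only, and without molecular identifiers reads need not be separate molecules.

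Genes averaging 10 or more normalized counts (16720) entered a fit by limma 3.58.1 under R 4.3.3 (eBayes with a trend, two-sided, Benjamini-Hochberg over all genes, threshold 0.05) on log2(normalized count + 1), which understates the change of low genes. The fit used the 6 postnatal libraries, with sex as a block for ages and age as a block for sexes. P-values measure only the spread between these pools. Between P1 and 2 weeks 2737 genes passed, between 2 and 12 weeks 2557, between P1 and 12 weeks 6881, and for sex 1. The quasi-likelihood test of edgeR 4.0.16 on the recovered whole reads passed 2795, 2396, 6754 and 0. Single libraries were compared as ratios with no test. The scripts were tested on simulated data.

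The 7 genes and all lists were chosen with earlier results of these data known. From each list the text may name its first 2 genes and up to 4 with the largest difference among those passing from P1 to 12 weeks. Some list members are not reported here by name. The 6 genes most like the class II pattern were taken by root mean square difference. Exon lengths and open reading frames come from GENCODE M21, used in place of protein sequences, and promoter sequences from RefSeq. Alternatives covered the pseudocount, the filter on low values, scaling, trend, block, test, fold limit and each library left out, which for the lists was chosen after seeing the data.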

Additional observations from a re-analysis of the deposited data

Results flagged for a closer look

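For H2-Aa, H2-Ab1 and H2-Eb1 the male library was above the female one at some ages and below it at another, beyond the 95% counting interval each time. The male to female ratio of normalized counts for H2-Aa was 2.75 in P1 pools, 0.791 in 2-week pools and 1.55 in 12-week pools. For H2-Ab1 it was 0.762 at 2 weeks and 2.16 at 12 weeks. For H2-Eb1 it was 3.02 in P1 pools, 0.681 in 2-week pools and 1.71 in 12-week pools. Each ratio sets 1 pool against 1 pool, and the difference between ages was not tested. Cd74 did not show it: its ratio was 1.07 in P1 pools, 1.10 in 2-week pools and 0.925 in 12-week pools.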

How the results depend on the processing

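For the 7 genes, 370 of the values recomputed from fits kept their direction and their side of the threshold, 35 lost the call, 2 gained it and 13 turned, and all 140 recomputed differences of 2 libraries stayed within their 95% counting interval. With no filter on low values limma passed 0 genes from P1 to 2 weeks (6431 at an unadjusted p under 0.05), 0 from 2 weeks to 12 weeks (6036) and 0 for sex (783), and 0 of the 7 genes in the first and second of these. With the filter, edgeR passed 2795, 2396 and 0. Without a trend the counts were 1672 genes and 1 of the 7 from P1 to 2 weeks, 1661 genes from 2 weeks to 12 weeks, and 0 for sex (638 unadjusted); edgeR also passed 0 for sex (667 unadjusted). Leaving out 1 library at a time gave 2 to 4461 genes and 0 to 4 of the 7 from P1 to 2 weeks, 421 to 3035 genes and 4 to 7 of the 7 from 2 weeks to 12 weeks, 3207 to 6271 genes and 6 to 7 of the 7 from P1 to 12 weeks, and 0 to 51 genes for sex. H2-Eb1 passed from P1 to 2 weeks without either 12-week library (limma adjusted p = 0.0038 and 0.00344). Libraries scaled to equal totals shifted the median of all genes by -0.20 from 2 weeks to 12 weeks and by -0.15 from P1 to 12 weeks and split the calls from 2 weeks to 12 weeks into 647 higher and 2515 lower, against 903 and 1654.

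Turned signs were all in values that did not pass. Without 1 library at a time the difference from P1 to 2 weeks ran from -0.445 to 0.0689 for H2-DMa, from -0.682 to 0.237 for H2-DMb1 and from -0.193 to 0.700 for Ciita, and the sex difference from -0.188 to 0.292 for H2-DMb1, from -0.0102 to 0.113 for Cd74 and from -0.0241 to 0.727 for H2-Ab1. The sex difference of H2-DMb1 was 0.000369 with a pseudocount of 5, 0.0451 with equal totals, 0.000686 with equal upper quartiles and 0.0341 by edgeR. At limits of 1.5-fold and 4-fold and with a mean of at least 50, the genes apart were 3206, 209 and 473 between the P1 sexes, 1684, 185 and 325 at 2 weeks (455 with a pseudocount of 5), 3746, 276 and 814 at 12 weeks, 3663, 280 and 624 between E18.5 and P1 male, and 5071, 400 and 1204 between E18.5 and P1 female. Of the 7 genes, those higher were 0 at 4-fold between the P1 sexes, 5 at 1.5-fold and 0 at 4-fold between the 12-week sexes, 1 at 4-fold in P1 male and 5 at 1.5-fold and 0 at 4-fold in P1 female against E18.5. The log2 ratio to the leukocyte list was 4.02 from medians and 3.91 from sums. With 1 P1 or 12-week library left out, an alternative chosen after seeing the data, it ran from 3.66 to 4.16, that to the class I list from 3.06 to 3.89 and that to macrophages from 4.45 to 5.14. The cause of these shifts was not tested, beyond the fewer libraries or genes that a setting leaves. No paired analysis was possible because each group has 1 library and the labels give no replicate numbers.

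The fits have 2 residual degrees of freedom, and no call among the 7 genes between P1 and 2 weeks held when a P1 or 2-week library was left out. Ciita and H2-DMb1 had fewer than 40 normalized counts before 12 weeks, and depth limits what their ratios can show.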
